A study of Mus musculus with 4 samples.

Results

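The response of H3WT mesenchymal progenitor cells (MPC) to 5-Azacitidine (5-Aza) was described in the cells that lay outside a muscle gate. A cell was kept when its barcode held at least 5000 UMIs, at least 1500 genes and at most 20% mitochondrial UMIs, and when Acta1, Actc1, Mylpf, Myl1, Tnnc2 and Tnnt3 together made less than 1% of its UMIs. A UMI marks 1 captured RNA molecule. The rule kept 3710 cells with DMSO and 5891 cells with 5-Aza, which are 9601 of the 39891 barcodes in the 4 libraries of the series. The cells were C3H10T1/2 clone 8, a mouse line that can form fat, bone, cartilage and muscle, and they carried a wild-type H3.1 transgene (H3WT) brought in by lentivirus with puromycin selection. The treated library received 5-Aza at 3 µM over 24 h and was harvested on day 28 of culture, while the vehicle library received DMSO with no stated day of harvest, so treatment and time in culture cannot be told apart. Each condition was 1 library. Differences between the libraries therefore have no replicate check, and every interval is a 95% interval that covers counting error only.

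5-Aza is a cytidine analogue that is built into nucleic acids and traps DNA methyltransferases, so that methylation of CpG sites is lost as cells divide. Genes held silent by promoter methylation, among them germline genes and genes of the interferon response to endogenous retroviral RNA, are known to be expressed after such treatment. In C3H10T1/2 cells the compound is known for turning a part of the cells into muscle, fat and cartilage cells. No methylation was measured in these libraries.

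The kept cells held 86871326 UMIs with DMSO and 82642714 UMIs with 5-Aza, and the median cell had 22420 and 13137 UMIs, respectively. A count of 0 in a library allows a level of up to 0.0345 CPM with DMSO and 0.0363 CPM with 5-Aza, where CPM is a gene's summed UMIs scaled to a common library total. Of 10 markers of mesenchymal progenitors, 9 reached 10 CPM in both libraries, Col1a1 among them at 3090 CPM with DMSO and 2742 CPM with 5-Aza, and Eng stayed below that level. None of the 5 osteoblast, 5 smooth muscle, 5 endothelial, 5 blood, 4 epithelial and 4 neural markers reached it in either library. Skeletal muscle, adipocyte and chondrocyte markers did, 1 of 11, 4 of 8 and 2 of 5 with DMSO. With 5-Aza 11, 6 and 1 of them did, and the 11 include the 6 gate genes. Between the kept cells of both libraries, 26 barcodes were shared, and no doublets were removed.

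The gate left out 102 of the 5993 cells with 5-Aza that passed the other filters (1.70%) and none with DMSO. The gate genes made at most 0.0474% of the UMIs of any DMSO cell, and 96.6% of those cells had none. With 5-Aza, 11% of the kept cells had none, the median share was 0.018%, and 9 kept cells lay between 0.8 and 1% against 5 left-out cells between 1 and 1.2%. Most 5-Aza cells thus had some gate gene UMIs, and few lay near the cut.

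Most genes kept their level. Of 8753 genes with at least 10 CPM in either library, 182 (2.08%) were at least 2-fold higher with 5-Aza and 21 (0.24%) were at least 2-fold lower, on the scale of log2(CPM + 1). Rose and fell are used here only for genes past this fold. Of the 182, 116 were below 10 CPM with DMSO and so passed the minimum through the 5-Aza library alone. The median log2 ratio was 0.03, with quartiles at -0.12 and 0.18, and 91.7% of genes lay within 0.5 of 0. A rise of at least 8-fold was seen for 52 genes and a fall of that size for none. The plot of levels shows the asymmetry, since the highest ratios belonged to genes that were near 0 with DMSO.

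**Figure D1:**
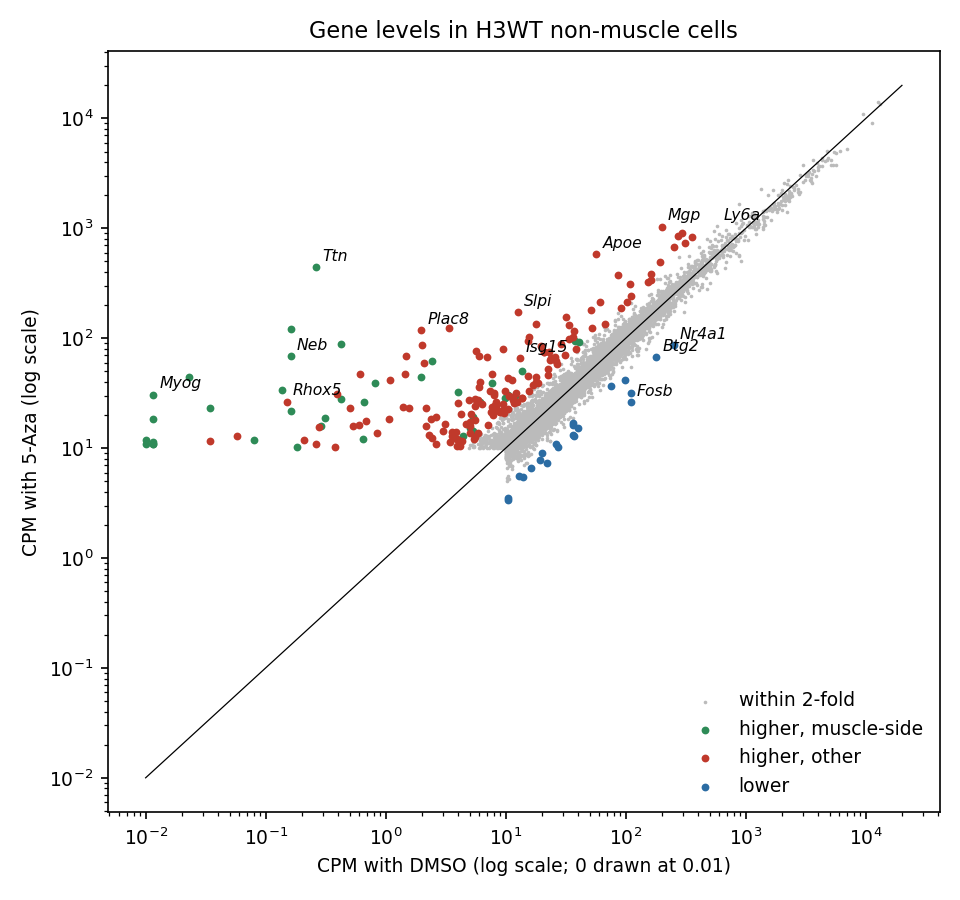
Level of each gene in CPM with DMSO (horizontal axis, log scale) and 5-Aza (vertical axis, log scale), for the 8753 genes at 10 CPM or more in either library; the line marks equal levels. Of the 182 higher genes, the 38 muscle-side genes in green are those at least 4-fold higher in the 102 left-out cells than in the kept 5-Aza cells, and the 21 lower genes in blue lie below the line.

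Outside the muscle-side genes, Plac8, Ndufa4l2, Alcam, Sfrp4 and Col8a1 had log2 ratios of 5.32, 4.91, 4.86, 4.85 and 4.82. Plac8, a small cysteine-rich protein first known from placenta (chr5:100553725-100572245), was at 1.98 CPM with DMSO and 118 CPM with 5-Aza, a ratio of 59.5 (51.2 to 69.6). Alcam, the adhesion molecule CD166 (chr16:52248996-52454074), was at 2.01 and 86.8 CPM, a ratio of 43.1 (37.1 to 50.3). Sfrp4, a secreted antagonist of Wnt ligands, was at 3.34 and 124 CPM. Their promoters differed in CpG content, and the 250 bases before the RefSeq start sites are shown for the first pair because 5-Aza acts on CpG sites; capitals mark each CG, of which Plac8 held 4 and Alcam 22, beside a median of 6 over 27025 promoters (GRCm38.p6). The RefSeq start of Alcam lay 993 bases from the GENCODE gene start.
Plac8, chr5:100572206-100572455, minus strand: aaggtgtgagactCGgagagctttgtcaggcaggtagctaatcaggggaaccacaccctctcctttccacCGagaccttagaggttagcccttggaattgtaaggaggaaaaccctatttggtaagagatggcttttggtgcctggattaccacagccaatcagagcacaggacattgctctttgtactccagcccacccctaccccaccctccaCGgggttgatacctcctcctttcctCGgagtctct
Alcam, chr16:52453082-52453331, minus strand: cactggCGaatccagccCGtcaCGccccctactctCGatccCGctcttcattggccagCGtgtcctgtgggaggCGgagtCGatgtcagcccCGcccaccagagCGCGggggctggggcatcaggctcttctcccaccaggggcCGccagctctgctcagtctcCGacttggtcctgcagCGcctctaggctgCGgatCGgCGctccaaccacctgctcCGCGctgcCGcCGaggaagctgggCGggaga

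Rhox5, an X-linked homeobox gene of the reproductive tract and germline, was the only member of a list of 38 germline genes to reach 10 CPM, at 0.15 CPM with DMSO and 26.5 CPM with 5-Aza. Its ratio was 177 (103 to 333), on 13 UMIs with DMSO. Of the other germline genes, 8 had no UMI in either library. Col8a1, a chain of the short-chain collagen VIII, was at 1.48 and 69.1 CPM. Cpq, a secreted carboxypeptidase, was at 0.391 and 31.0 CPM, and Ndufa4l2, a hypoxia-inducible mitochondrial protein, at 0.61 and 47.5 CPM. Dkk2, a ligand of the Wnt co-receptors, was at 1.09 and 41.5 CPM. Baiap2l1, an actin-bundling membrane adaptor, was at 1.46 and 47.4 CPM, and Sncg, the gamma synuclein, at 2.10 and 59.8 CPM. Across these genes the ratio ran from 28.6 for Sncg to 177 for Rhox5.

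Muscle genes rose also in cells below the gate. The giant sarcomere protein titin, encoded by Ttn (chr2:76703980-76982547), was at 0.265 CPM with DMSO and 441 CPM with 5-Aza. Neb, the ruler of the thin filament, was at 0.161 and 69.3 CPM. Myog, the transcription factor of terminal myogenesis, had 1 UMI with DMSO and was at 30.6 CPM with 5-Aza, a ratio of 2662 (477 to 105167). Of 36 sarcomere genes outside the gate, 15 reached 10 CPM and 13 of these rose, beside 2.08% of all genes. The others were Tnni1 at 21.1 and 24.4 CPM and Trim63, a ubiquitin ligase of muscle, at 10.2 and 5.03 CPM. Among 20 myogenic regulators and fusion genes, 7 reached 10 CPM and 5 rose, beside the same share, namely Myod1, Myog, Mef2c, Mymk and Des. All 13 sarcomere genes and 4 of the 5 regulators that rose were below 10 CPM with DMSO and so passed the minimum through the 5-Aza library alone. Summed over all 36 sarcomere genes, the level was 52.9 CPM with DMSO and 882 CPM with 5-Aza. The 6 gate genes themselves were at 10.9 to 122 CPM with 5-Aza and at most 0.817 CPM with DMSO, values that the rule shaped.

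The muscle transcripts had a concentrated and a thin component. With each cell thinned at random to 5000 UMIs, 44.1% of 5-Aza cells had a UMI of Ttn (42.8 to 45.3) and 0.108% of DMSO cells (0.0294 to 0.276), and without thinning 74.5% and 0.539%. Yet 47 cells with 40 or more thinned Ttn UMIs, 0.798% of the cells, held 70% of all Ttn UMIs, and 35 of these 47 had a UMI of Myog. The 1688 cells with exactly 1 Ttn UMI held 12% of them, and 3.02% of those cells had a UMI of Myog, against 2.79% of the 3296 cells without Ttn. The share with Myog was thus high in the Ttn-rich cells and alike in cells with 1 and no Ttn UMI. The share with Col1a1, the main fibroblast collagen, was 51.1% in the 47 cells and 99.4% in the cells with 1 Ttn UMI.

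Low-count barcodes of the same library carried muscle RNA at high levels. In its 6607 barcodes below 1000 UMIs, Ttn was at 3375 CPM, Acta1 at 3880 CPM and Myog at 180 CPM, and in the 1613 such barcodes of the DMSO library Ttn was at 8.26 CPM. The part of free RNA in the Ttn of kept cells was not tested. When the 158 cells with 4 or more thinned Ttn UMIs were left out, 176 genes rose, 175 of them among the 182. Ttn then had a log2 ratio of 6.46 in place of 8.45. At the minimum of 10 CPM, 2 myogenic regulators were past 2-fold in place of 5, and the rest of the 5 were below that minimum. When every cell with a thinned gate gene UMI was left out, which kept 2202 of the 5891 cells, 182 genes rose, 150 of them shared. Mef2c then had a log2 ratio of 0.88. Myod1, Myog, Mymk and Des were below 10 CPM there, so no ratio was taken for them. Plac8 and Alcam were at 16.4 and 24.1 CPM in the 102 left-out cells, below their 118 and 86.8 CPM in the kept cells.

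The genes that rose differed in the share of cells with a UMI. Ifitm3 and Lum had a UMI in 88.9% and 81.4% of thinned 5-Aza cells against 67.9% and 49.0% of DMSO cells. Plac8 was found in 27.8% (26.7 to 29.0) against 0.97% (0.681 to 1.34), and Alcam in 29.1% (27.9 to 30.3) against 0.89% (0.613 to 1.25). In the left-out muscle cells, whose median was 15409 UMIs, the shares for Plac8 and Alcam were 7.84% and 9.80%. Rhox5 was found in 7.37% of 5-Aza cells and 17.6% of the left-out cells. The 5-Aza barcodes below 1000 UMIs held Ifitm3 at 412 CPM, Lum at 604 CPM, Plac8 at 80.2 CPM and Rhox5 at 26.2 CPM. A UMI is thus a detection, and free RNA and expression in a given cell were not told apart. At the other end, the top 1% of cells held 96.2% of the UMIs of Adipoq, an adipocyte hormone, and 84.3% of those of Crabp1, a retinoic acid carrier.

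**Figure D2:**
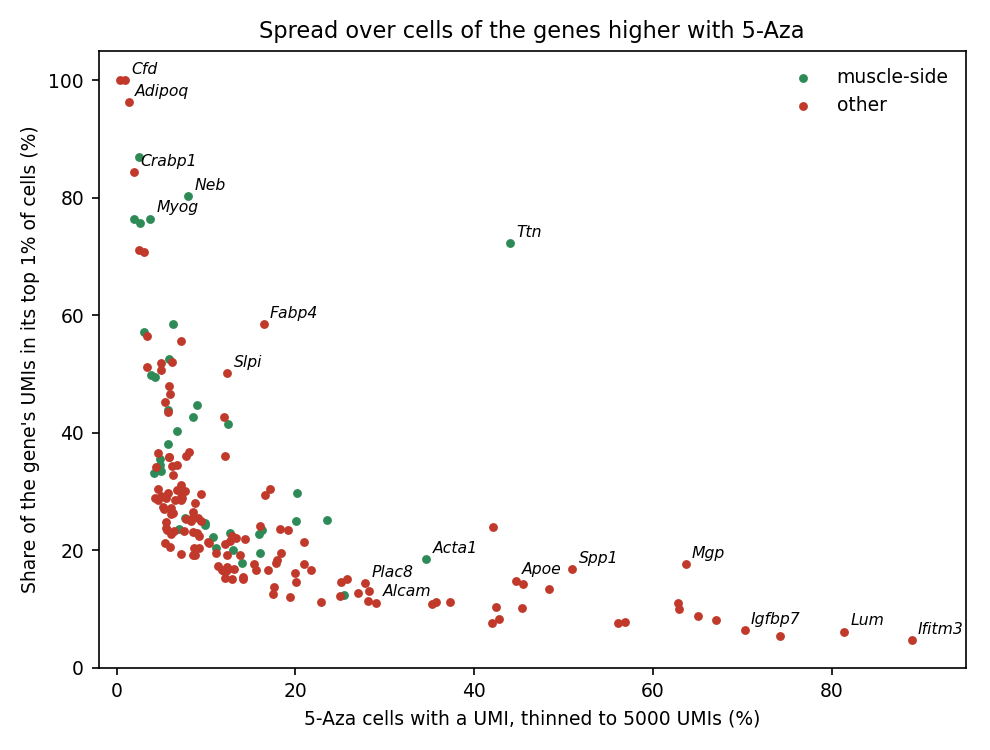
Each point is 1 of the 182 genes that rose; the horizontal axis gives the percentage of 5-Aza cells with a UMI after thinning to 5000 UMIs, and the vertical axis the percentage of the gene's UMIs held by its top 1% of cells. Ttn stands apart, with a UMI in 44.1% of cells and 72.2% of its UMIs in the top 1%, while Lum and Ifitm3 lie at the right, with a UMI in 81.4% and 88.9% of cells.

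Of the 52 genes at least 8-fold higher, 24 were muscle-side, as defined by at least 4-fold higher CPM in the left-out cells than in the kept cells, and 28 were not. A thinned 5-Aza cell had a UMI of a median of 3 of the 28, and 91.0% of the cells had at least 1 of them. Of the DMSO cells, 28.8% had at least 1 and none had 5 or more, against 1700 of the 5891 5-Aza cells. In the left-out muscle cells 78.4% had at least 1, with a median of 1.5. Barcodes below 1000 UMIs of the 5-Aza library also held such RNA, Slpi at 123 CPM, Apoe at 274 CPM and Alcam at 57.4 CPM, and the part of free RNA in these shares was not tested. Among the 12 most raised of these genes at 20 CPM or more, the correlation of detection across 5-Aza cells ran from -0.03 to 0.11 over 66 pairs. The median was 0.05, and 58 of the 66 pairs lay above 0. The 28 were chosen on these same cells, so the counts describe them and test nothing.

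**Figure D3:**
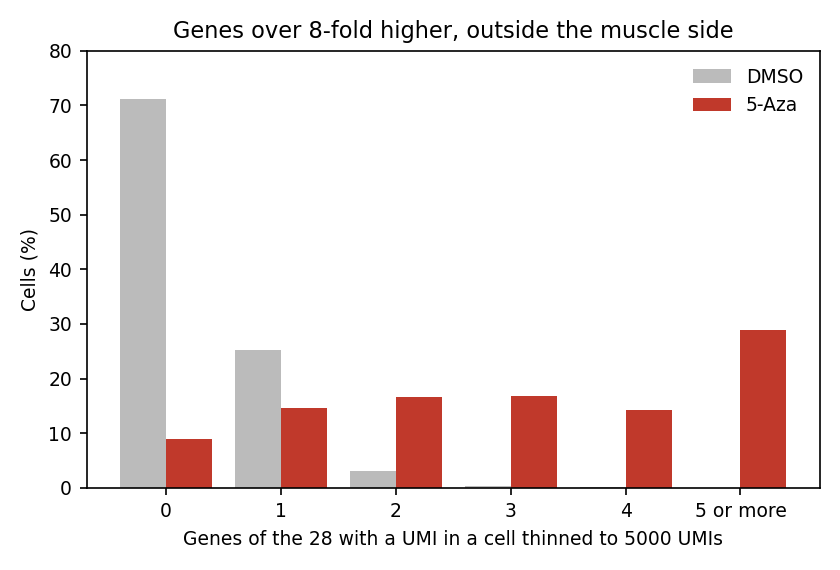
Percentage of cells (vertical axis) by the number of the 28 genes with a UMI in that cell (horizontal axis), after thinning to 5000 UMIs, for the 3710 DMSO and 5891 5-Aza cells. The DMSO cells are mostly at 0 (71.2%), and 8.96% of the 5-Aza cells are.

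Interferon-stimulated genes summed to a higher level with 5-Aza. The 30 listed genes found in the files summed to 963 CPM with DMSO and 1957 CPM with 5-Aza, a ratio of 2.03 (2.02 to 2.05). Of the 16 that reached 10 CPM, 7 rose, beside 2.08% of all genes, and none fell. Of the 7, 3 passed the minimum through the 5-Aza library alone. The median log2 ratio of the 16 was 0.78 beside 0.03 over all genes. Isg15, a ubiquitin-like modifier, was at 13.0 and 66.2 CPM, Rtp4 at 6.29 and 25.4 CPM and Ifitm3, which blocks viral entry, at 311 and 730 CPM. Of the factors that drive the response, Stat2 and Irf9 stayed within 2-fold, Stat2 at 26.3 and 38.4 CPM and Irf9 at 16.9 and 27.3 CPM. In thinned cells the summed UMIs of the list had a median of 4 with DMSO and 8 with 5-Aza, and 35.0% of 5-Aza cells lay above the 95th percentile of DMSO cells. Of 6 sensors of foreign RNA and DNA at the minimum, none rose, beside 2.08% of all genes, a share at which so short a list says little. The RNA helicase Ddx58 was at 30.9 and 43.2 CPM.

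Of 16 genes of MHC class I at the minimum, which shows peptides at the cell surface, 15 had log2 ratios above 0. The median of the 16 was 0.45, beside 0.03 over all genes. The classical chains H2-K1 and H2-D1 rose from 61.4 to 215 CPM and from 51.9 to 123 CPM, and H2-Q4, H2-Q7 and H2-M3 also rose. The light chain B2m was at 624 and 778 CPM, the peptide transporter gene Tap2 at 49.8 and 58.4 CPM and the chaperone gene Tapbp at 91.4 and 84.5 CPM, all within 2-fold. The class I genes lie in a family with near-identical members, so reads could be split between them. In all, 5 of the 16 class I genes at the minimum rose, beside 2.08% of all genes, and 2 of the 5 passed through the 5-Aza library alone.

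Promoters of interferon-stimulated genes carry a response element made of a repeated GAAA. The string GAAANNGAAA was searched on both strands in the 250 bases before each start. It was found in 8 of the 26 interferon and class I genes at the minimum with a RefSeq promoter (30.8%) and in 3.05% of the 27025 promoters. Of the 10 genes of these lists with a promoter that rose, 3 held it, as did 5 of the 16 that did not. The 3 are printed with each match in capitals, where the matches of Isg15 and of Bst2 overlap and those of Ifit1 lie on the other strand. A match is a string of letters and not a measured binding site.
Isg15, chr4:156200819-156201068, minus strand: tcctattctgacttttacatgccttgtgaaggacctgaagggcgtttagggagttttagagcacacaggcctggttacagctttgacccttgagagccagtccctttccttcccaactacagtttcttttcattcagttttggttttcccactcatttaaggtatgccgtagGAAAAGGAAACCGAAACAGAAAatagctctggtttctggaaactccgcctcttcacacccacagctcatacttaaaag
Ifit1, chr19:34640639-34640888, plus strand: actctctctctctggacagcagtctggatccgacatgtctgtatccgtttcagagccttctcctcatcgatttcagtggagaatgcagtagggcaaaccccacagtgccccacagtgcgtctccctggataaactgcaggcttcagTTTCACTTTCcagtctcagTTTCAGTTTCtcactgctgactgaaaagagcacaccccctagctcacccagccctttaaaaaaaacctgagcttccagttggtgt
Bst2, chr8:71537473-71537722, minus strand: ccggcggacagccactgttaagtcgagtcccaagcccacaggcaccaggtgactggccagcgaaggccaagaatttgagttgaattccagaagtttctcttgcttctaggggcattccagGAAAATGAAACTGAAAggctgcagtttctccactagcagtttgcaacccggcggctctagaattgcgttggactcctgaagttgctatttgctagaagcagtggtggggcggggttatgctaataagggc

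**Figure D4:**
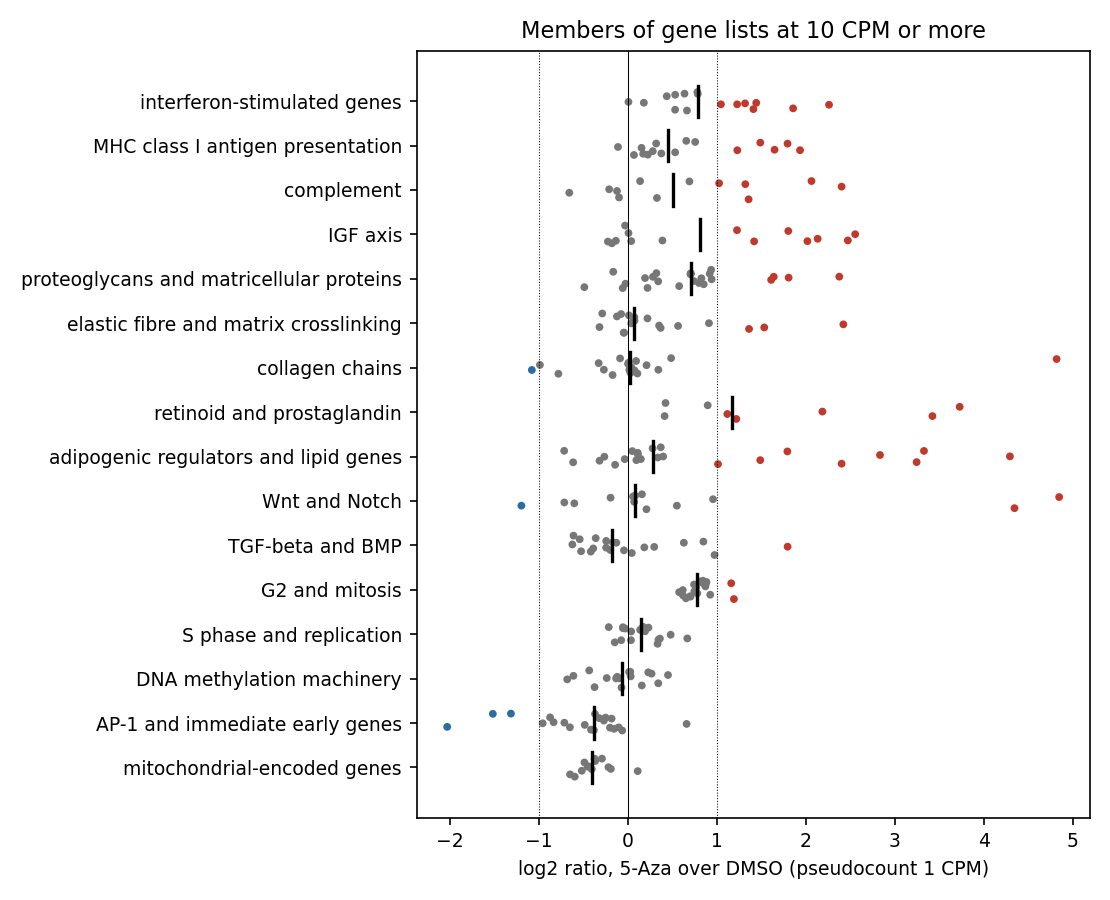
Log2 ratio of 5-Aza over DMSO (horizontal axis) for each member at 10 CPM or more of 16 gene lists; red points rose, blue points fell, grey points lay within 2-fold (dotted lines), and black bars mark list medians. The G2 and mitosis members sit in a narrow band near the dotted line at 1, while the retinoid, IGF and adipogenic lists are spread wide.

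Of 24 proteoglycan and matricellular genes at the minimum, Mgp, Lum, Dpt and Spp1 rose, beside 2.08% of all genes, and none fell. The median log2 ratio of the 24 was 0.71. Mgp, an inhibitor of calcification, was at 199 CPM in the vehicle library and 1035 CPM in the treated one, a ratio of 5.21 (5.13 to 5.30). Lum, which binds collagen fibrils, was at 297 and 908 CPM and Dpt, another fibril-binding protein, at 51.5 and 182 CPM. Decorin, encoded by Dcn, was at 874 and 1654 CPM, with a log2 ratio of 0.92. Of 20 listed collagen chains, Col8a1 rose and Col27a1, a fibrillar chain, fell, at 36.6 and 16.8 CPM, and the other 18 lay within 2-fold. Over all genes 2.08% rose and 0.24% fell. Col18a1, among these 18, had a log2 ratio of -0.989, and of -1.35 among cells of 10000 to 20000 UMIs. That depth window held 1191 DMSO and 3912 5-Aza cells. It lay below the DMSO median of 22420 UMIs and around the 5-Aza median of 13137. Outside the list, the collagen chain gene Col23a1 also fell, with a log2 ratio of -1.06. Col1a1, Col1a2 and Col3a1, the chains of the main fibrils, had log2 ratios of -0.17, -0.33 and 0.34. The microfibril genes Mfap2 and Mfap4 and the fibulin gene Efemp1 rose, at 2.15 and 15.9, 25.7 and 67.6, and 8.36 and 26.1 CPM, but the log2 ratio of Mfap4 was 0.66 among cells of 10000 to 20000 UMIs in place of 1.36. Ctsk, the collagen-degrading cathepsin of osteoclasts, was at 0.506 and 23 CPM.

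Of 14 members of the insulin-like growth factor (IGF) axis at the minimum, 7 rose, beside 2.08% of all genes, and none fell. The 7 were Igf2, Pappa2, Igfbp2, Igfbp3, Igfbp4, Igfbp5 and Igfbp7, and 2 of them passed the minimum through the 5-Aza library alone. The 16 listed genes summed to 1517 CPM with DMSO and 3047 CPM with 5-Aza. Igfbp7 and Igfbp3, binding proteins that hold IGF outside the cell, were at 85.7 and 379 CPM and at 15.3 and 94.5 CPM. Igf2, the fetal growth factor, was at 13.6 and 49.99 CPM and Pappa2, a protease that cuts binding proteins, at 7.67 and 47.1 CPM. The receptors Igf1r and Igf2r had log2 ratios of 0.01 and 0.04. Igfbp5 was at 354 and 829 CPM, with a log2 ratio of 1.23 that became 0.39 among cells of 10000 to 20000 UMIs.

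Smaller groups held further rises. The retinoic acid carriers Crabp1 and Crabp2 and the retinoid enzymes Aldh1a1 and Dhrs3 rose, all from below 10 CPM with DMSO, and Crabp1 was at 0.0576 and 13.0 CPM. Of 12 complement genes, 5 rose, beside 2.08% of all genes, and 2 of the 5 passed the minimum through the 5-Aza library alone. C3, the hub of the cascade, was at 19.7 and 85.3 CPM and Clu, an inhibitor of its lytic end, at 191 and 491 CPM. Il33, a cytokine of stromal nuclei, was at 9.42 and 80.4 CPM. Apoe, a carrier of lipid, was at 57 and 581 CPM, with a UMI in 44.7% of thinned 5-Aza cells and 12.8% of DMSO cells. Slpi, an inhibitor of leukocyte proteases, was at 12.6 and 172 CPM, and the top 1% of cells held 50.1% of its UMIs. Gpnmb, a glycoprotein of lysosomes and melanosomes, was at 5.96 and 68.3 CPM. In the Wnt and Notch list, Sfrp4 and Dkk2 rose, beside 2.08% of all genes. Sfrp1, another secreted Wnt antagonist, fell from 97.8 to 42.1 CPM, beside 0.24% of all genes, while 10 of the 13 members lay within 2-fold. Of 11 smooth muscle genes, Tagln, Myl9 and Des rose, beside 2.08% of all genes, all from below 10 CPM. Des is also counted among the myogenic genes above. Of 11 bone and cartilage genes, Spp1, Mef2c and the cartilage protein gene Matn3 rose, beside 2.08% of all genes, and none fell. Of the 11, 6 lay above 0. Spp1 is also counted among the matricellular genes and Mef2c among the myogenic ones. Col2a1, the main cartilage collagen, was at 23.9 and 13.5 CPM, and the 5 chondrocyte markers summed to 39.4 and 23.5 CPM. Of 20 TGF-beta and BMP genes, Fst, which binds activin, rose, at 20.9 and 74.8 CPM, and none fell, with Id3 at 676 and 438 CPM. Over all genes 2.08% rose and 0.24% fell, so these counts lie near the share of all genes. The median log2 ratio of the 20 was -0.18, with 7 of the 20 above 0. The listed genes summed to 5354 CPM with DMSO and 4389 CPM with 5-Aza.

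Several fat cell genes that rose had nearly all their UMIs in few cells. Cells with a thinned UMI of at least 3 of Adipoq, Fabp4, Plin1, Plin4, Cidec, Lpl, Retn and Pparg were 55 with DMSO (1.48%) and 195 with 5-Aza (3.31%). These 195 cells held 94.6% of the Adipoq, 97.5% of the Retn and 96.5% of the Cfd UMIs, but 56.8% of those of Fabp4 and 25.8% of those of Lpl. Apart from Cfd, these genes were among those that chose the cells. Pparg, the master regulator of fat cells, was at 27.4 and 26.7 CPM. Plin4, also among the genes that chose the cells, went the other way within 2-fold, at 113 CPM with DMSO and 68.3 CPM with 5-Aza. In the adipogenic list 8 of 23 genes rose, beside 2.08% of all genes, and 4 of the 8 passed the minimum through the 5-Aza library alone. Once the 55 and 195 cells were left out, 4 members were at 10 CPM and past 2-fold, while Adipoq and Retn were below 10 CPM. Fabp4, a fatty acid carrier, then had a log2 ratio of 2.06 in place of 2.83 and Apoe 3.29 in place of 3.33. In barcodes below 1000 UMIs, Fabp4 was at 121 CPM and Apoe at 274 CPM with 5-Aza, against 48.6 and 41.3 CPM with DMSO, and their part in these values was not tested.

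The markers that the study follows moved by unequal amounts. Spp1, the secreted phosphoprotein osteopontin (chr5:104435118-104441050), was at 275 CPM with DMSO and 858 CPM with 5-Aza, a ratio of 3.12 (3.08 to 3.17). Ly6a, the surface antigen Sca-1 of mesenchymal progenitors (chr15:74994877-74998031), was at 578 and 1052 CPM, a ratio of 1.82 (1.80 to 1.84) that stayed under 2-fold. Their shares of thinned cells were 23.6% and 51.0% for Spp1 and 53.6% and 71.8% for Ly6a. Enpp2, the enzyme autotaxin, was at 48.0 and 93.4 CPM and Pdgfra, a receptor of mesenchymal progenitors, at 111 and 129 CPM. Cd34 and Hmga2 stayed below 10 CPM in both libraries, at 0.518 and 4.97 CPM and at 6.52 and 9.54 CPM. Of 6 Ly6 family genes at the minimum, Ly6e rose, at 15.7 and 103 CPM, beside 2.08% of all genes. All 6 had log2 ratios above 0, from 0.69 to 2.64. Ly6c2 was at 44.3 and 89.4 CPM, with a log2 ratio of 0.997. Among cells of 10000 to 20000 UMIs the log2 ratio was 1.61 for Ly6a in place of 0.86 and 2.77 for Spp1 in place of 1.64. In that window 4 Ly6 genes were past 2-fold. The window lay below the DMSO median of 22420 UMIs and around the 5-Aza median of 13137. With all cells thinned to 5000 UMIs the log2 ratio was 0.98 for Ly6a and 1.80 for Spp1, and the cause of the difference was not tested.

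Of the 21 genes that fell, 3 were in the list of immediate early genes, which respond to growth signals within minutes. Fosb, a subunit of AP-1 (chr7:19302696-19310051), fell from 110 CPM with DMSO to 26.2 CPM with 5-Aza, a 4.21-fold lower level and the only fall beyond 4-fold. Nr4a1, an orphan nuclear receptor (chr15:101254269-101274795), fell from 251 to 87.1 CPM and the zinc finger gene Egr3 from 27 to 10.3 CPM. These 3 were the falls among 21 listed immediate early genes at the minimum, beside 0.24% of all genes, and none of the 21 rose. The median log2 ratio of the 21 was -0.38, and 1 of them, Fosl1, lay above 0. Fos was at 921 and 501 CPM, Egr1 at 881 and 560 CPM and Junb at 722 and 648 CPM. The thinned share of cells with a UMI was 33.6% and 10.5% for Fosb and 58.5% and 29.4% for Nr4a1. In thinned cells 1.80% of 5-Aza cells lay above the 95th percentile of the summed list in DMSO cells, against 4.99% of the DMSO cells themselves.

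The other genes that fell were outside the immediate early list. Cib3, a calcium-binding protein, fell from 111 to 31.8 CPM. Ppargc1a, the coactivator that drives mitochondrial biogenesis, fell from 37.3 to 12.9 CPM and Irs2, an adaptor of the insulin receptor, from 36.4 to 13.1 CPM. Btg2, an antiproliferative target of p53, fell from 179 to 67.6 CPM. It was the only 1 of 20 genes in the list of CDK inhibitors and p53 targets that fell, beside 0.24% of all genes. In the same list Cdkn1a was at 219 and 286 CPM. Mlana, a melanosome protein, Prag1, a pseudokinase, Fhod3, a formin, and the kinase gene Nlk fell by 1.10 to 1.48 on the log2 scale. The 13 genes encoded by mitochondria summed to 39499 CPM with DMSO and 30141 CPM with 5-Aza, and none was past 2-fold.

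The DNA methyltransferases that 5-Aza targets stayed within 2-fold. None of 17 DNA methylation genes at the minimum was past 2-fold, where 2.08% of all genes rose and 0.24% fell. At such shares a count of none in a list this short says little about its members. Dnmt1, the maintenance methyltransferase, was at 38.7 and 39.6 CPM and Dnmt3a, a de novo enzyme, at 49.2 and 36.1 CPM. The demethylases Tet1 and Tet3 had log2 ratios of -0.68 and -0.61. None of 10 subunits of PRC2, which places methyl marks on histone H3, was past 2-fold, again near the share over all genes. Ezh2 was at 25.6 and 28.4 CPM. Of 17 imprinted genes H19 and Igf2 rose, beside 2.08% of all genes, at 37.5 and 95.04 CPM and at 13.6 and 49.99 CPM. Both were also at least 4-fold higher in the left-out muscle cells than in the kept cells. The median log2 ratio of the 17 was 0.02, beside 0.03 over all genes. Without cells with a gate gene UMI, the log2 ratio of H19 was 0.81 in place of 1.32 and no longer past 2-fold. The imprinted Meg3 was at 137 and 104 CPM.

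Genes of mitosis lay above the all-gene median more than those of S phase. All 21 genes of G2 and mitosis at the minimum had log2 ratios above 0, from 0.58 to 1.19. Of the 21, 2 rose, beside 2.08% of all genes, Cenpf at 22.3 and 52.3 CPM and Ube2c at 31.1 and 70.8 CPM. The median was 0.78, and that of 18 S phase genes was 0.15, with Pcna at 61.5 and 52.8 CPM. Cells with a thinned UMI of any of 7 cycling genes were 11.5% with DMSO and 17.1% with 5-Aza. Without these cells Cenpf and Ube2c were below 10 CPM, and the count past 2-fold was 0. Cenpf, Top2a and Ccnb1 were among the genes that chose these cells and are in the same list, so that count was shaped by the choice. Among cells of 10000 to 20000 UMIs the count was 15. None of 16 heat shock and unfolded protein genes and none of 25 glutathione and oxidative stress genes was past 2-fold. Over all genes 2.08% rose and 0.24% fell, so these counts lie near the share of all genes.

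Along the genome the chromosome medians of the log2 ratio lay between -0.01 and 0.10.

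The same contrast was made in the cells with H3R26C, which carry the arginine 26 to cysteine form of the transgene, from 4727 DMSO and 7449 5-Aza cells under the same rule. There 440 of 9044 genes (4.87%) were at least 2-fold higher and 282 (3.12%) at least 2-fold lower. Of the genes that rose in H3WT, 138 (75.8%) also rose in H3R26C, and they made 31.4% of the rises there. Of the 21 that fell, 18 (85.7%) also fell, and they made 6.38% of the falls there. The difference between genotypes was not tested, since each condition was 1 library. Across 8577 genes at the minimum in both, which are not independent replicates, Pearson's r of the log2 ratios was 0.83. Interferon-stimulated genes had medians of 0.78 over 16 genes in H3WT and 2.18 over 25 genes in H3R26C. These medians cover different genes, since members entered by reaching 10 CPM in either library of that genotype. They can therefore not be set against each other. Isg15 went from 22.97 to 372 CPM in H3R26C, and its DMSO level was above the 13.0 CPM of H3WT. Fosb fell from 41.3 to 1.84 CPM and Ppargc1a from 41.3 to 1.85 CPM in H3R26C, with log2 ratios of -3.89 for both. Apoe had a log2 ratio of 1.17 there against 3.33, and Ttn 8.27 against 8.45. Spp1 had 3.39 against 1.64 and Ly6a 1.29 against 0.86.

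**Figure D5:**
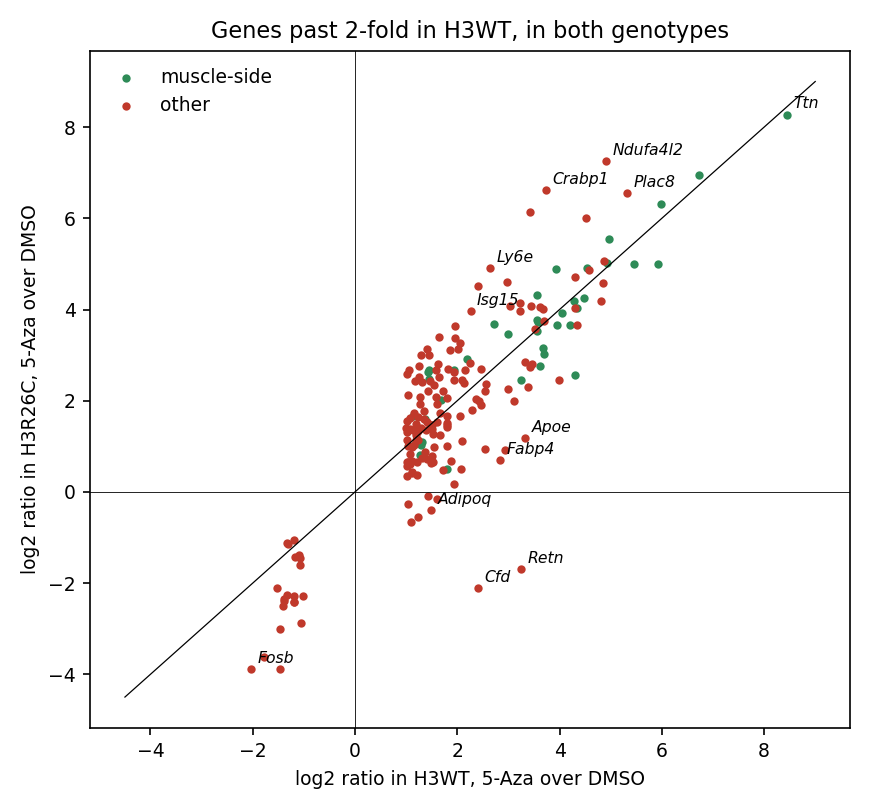
Log2 ratio of 5-Aza over DMSO in H3WT (horizontal axis) and H3R26C (vertical axis) for the 203 genes past 2-fold in H3WT, with the line of equal ratios; each condition is 1 library. Ttn lies near the line at 8.45 and 8.27, and Cfd and Retn, which were higher with 5-Aza in H3WT, lie below 0 in H3R26C.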

How the data were processed

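Droplet single-cell libraries of H3WT cells with DMSO and with 5-Aza were compared, with those of H3R26C beside them. Counting was done by the authors with Cell Ranger (6.1.0 in the file headers), and the deposited values are raw UMI counts per gene and barcode. The submitters' processing notes give GRCm38 with GENCODE M21, while the study's methods name a mouse reference from the platform's maker. GENCODE M21 held a position for 99.8% of the counted genes, and which annotation was counted on was not settled. The cell filter and the gate were applied here, and counts were summed per library and scaled to CPM. Log2 ratios used a pseudocount of 1 CPM, and genes needed 10 CPM in either library. Intervals were exact Poisson or binomial ones and cover counting error only, since no test between single libraries was made. Named genes were the 15 highest and 15 lowest ratios at 20 CPM or more, up to 4 genes with the largest ratios in each of 40 lists with the highest-level member, and genes the study names, while others described were chosen after their values were seen. The members and lists were chosen with earlier results of these data known. Shares of cells were taken after thinning to 5000 UMIs. Promoters matched by symbol for 70.9% of the genes that rose, under the 80% needed, so a comparison of their CpG content is void; promoters came from RefSeq and gene positions from GENCODE M21. Python 3.11.15, numpy 2.4.6, scipy 1.17.1, pandas 2.3.3 and matplotlib 3.10.9 were used. No column was left unmapped. Some genes are not reported here. Alternatives changed the scaling, minimum, pseudocount, cell filter, gate and choice of cells.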

Additional observations from a re-analysis of the deposited data

Results flagged for a closer look

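Cfd, a serine protease of fat cells, was past 2-fold in opposite directions in the 2 genotypes, with a log2 ratio of 2.40 for H3WT against -2.11 for H3R26C. These differ by 4.51, which was not tested because each condition is 1 library. It was at 5.99 and 35.9 CPM in H3WT and at 32.9 and 6.85 CPM in H3R26C, with DMSO and with 5-Aza, respectively. In H3WT the log2 ratio ran from 1.21 among cells of 10000 to 20000 UMIs to 4.07 with a filter of 10000 UMIs, and 96.5% of the 5-Aza UMIs of Cfd were in the 195 cells with at least 3 of the adipocyte genes. Outside the compared cells, the muscle gate left out 1.70% of the 5-Aza cells that passed the other filters and none of the DMSO cells. In barcodes below 1000 UMIs, which enter no comparison, Ttn was at 3375 CPM with 5-Aza and 8.26 CPM with DMSO.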

How the results depend on the processing

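No paired analysis was possible because the comparison has a single library on either side. Of 16 alternatives set out for this comparison and 2 added after the data were seen (leaving out cells with 4 or more thinned Ttn UMIs, or with a thinned gate gene UMI), the count of genes that rose, 182, moved beyond 1.5 times with a minimum of 1 CPM (555), a minimum of 50 CPM (59), a pseudocount of 10 CPM (114) and cells of 10000 to 20000 UMIs (281). The count that fell, 21, became 33, 6, 7 and 51 in the same order. The first pair changes how many genes are tested and the pseudocount shrinks low genes by construction, and the cause of the last was not tested; the DMSO and 5-Aza cells kept there were 1191 and 3912. Elsewhere 169 to 206 genes rose and 21 to 31 fell. Of the 86 named genes past 2-fold, 63 stayed so wherever they reached the minimum and none changed direction. Beyond the pseudocount, calls ended for Adipoq, Igfbp5 and Mfap4 among cells of 10000 to 20000 UMIs (0.73, 0.39 and 0.66 on the log2 scale), for Adipoq without the 10% of cells with most UMIs (0.86), for H19 and Mef2c without cells with a gate gene UMI (0.81 and 0.88) and for Gm48197 in thinned cells (-0.998). The G2 and mitosis list had 2 genes past 2-fold, 15 among cells of 10000 to 20000 UMIs, 13 without cells with a gate gene UMI and 12 without the deepest cells. Intervals cover counting error alone. Depth per cell and treatment differ together between the libraries, and time in culture may differ too, since no day of harvest is stated for DMSO.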
